A study of Mus musculus with 19 samples.

Results

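The SPARC and thrombospondin families of secreted proteins were represented by 10 genes, namely Sparc, Sparcl1, Smoc1, Smoc2, Spock1, Spock2, Thbs1, Thbs2, Thbs3 and Thbs4. They were chosen by family, with earlier results of these data known. All 10 were found by gene symbol among the 24537 genes listed for 19 libraries of RNA from astrocyte nuclei of the mouse cortex. The libraries came from nuclei sorted as SOX9-positive and NEUN-negative, at postnatal days 26 to 28, from C57BL/6J mice. SOX9 is a transcription factor of astrocytes and NEUN a nuclear protein of neurons. All 4 groups carried floxed Smad4 alleles (Smad4 fl/fl). The group called WT (n = 4) was Fmr1 +/y and negative for the Gfap-Cre73.12 transgene, so it is a floxed, Cre-negative control. The Smad4 cKO group (n = 6) was Fmr1 +/y and Cre-positive. The Fmr1 KO group (n = 5) was Fmr1 -/y and Cre-negative, and the double mutant group (n = 4) was Fmr1 -/y and Cre-positive. The Cre is driven by Gfap sequences, so deletion is limited to cells in which that transgene was active and the whole animal is not a Smad4 null. The series describes its libraries as biological replicates, and p-values here measure the spread between those libraries.

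Matricellular proteins are secreted into the extracellular matrix, where they signal to cells more than they build structure. Astrocytes release several of them during cortical development. Thrombospondins induce excitatory synapses through the neuronal receptor subunit encoded by Cacna2d1, hevin (Sparcl1) promotes the formation of excitatory synapses, and SPARC antagonises the synapse-forming action of hevin. Smad4 is the partner that receptor-activated SMAD proteins share when they regulate genes downstream of BMP and TGF-beta. Loss of the Fmr1 product, a regulator of translation, causes fragile X syndrome.

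In libraries labelled as having lost Smad4, Sparc was higher by 1.60 and Smoc1 by 0.86 on the log2 scale. These were averaged over both Fmr1 genotypes, and both passed the test. In libraries labelled Fmr1 KO, Spock2 was lower by 0.73 on the log2 scale averaged over both Smad4 genotypes, and summed endothelial cell markers were lower in the same libraries. Sparcl1, the most abundant member, Spock1 and the 3 tested thrombospondins passed in none of 7 comparisons in limma, and of these only Thbs3 had an unadjusted p under 0.05 in any of them, in 2.

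Values are TPM (a level per transcript length, scaled to the library) divided by a library factor, called scaled TPM. The factors ran from 0.918 to 1.07. Differences are on the log2(scaled TPM + 1) scale, which understates fold changes, most of all for genes near or below 1 scaled TPM. A gene passed at a Benjamini-Hochberg adjusted p under 0.05 over 15049 genes in the limma fit. Of the 10 genes, 8 reached the mean TPM of 1 needed to enter that fit, and Thbs2 and Smoc2 did not. Read depth is unknown because TPM keeps no read counts. All 12 astrocyte markers were listed above 0 in every library, with group medians of their sum from 7066 to 8208 scaled TPM. Markers of other cell types were present as well. Neuronal marker sums ran from 66.4 to 409, endothelial sums from 140 to 831, microglial sums from 86.1 to 560 and oligodendrocyte sums from 261 to 3799 scaled TPM. In bulk libraries, fewer cells of a type and less RNA per cell cannot be told apart. The targeted genes did not verify the labels. Whole-gene Smad4 averaged 33.3, 32.4, 32.4 and 32.2 scaled TPM in WT, Smad4 cKO, Fmr1 KO and double mutant libraries, and Fmr1 itself differed by 0.59 on the log2 scale, upward, by the average Fmr1 label. Whether these values cover the floxed or altered parts of either gene was not tested, so directions below are by label.

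Promoter sequences from RefSeq (build GRCm38.p6) were matched by symbol for 6 of the 10 genes, namely Sparc, Spock1, Spock2, Thbs2, Thbs3 and Thbs4. The 250 bases before the RefSeq transcription start are shown for Sparc, which moved with the Smad4 label, and for Spock2, which moved with the Fmr1 label. Each is written 5′ to 3′ on the strand of the gene. Capitals mark a match to CAGAC, the short box bound by SMAD proteins, or to its reverse complement GTCTG. The Sparc window lies at chr11:55420081-55420330 on the minus strand and the Spock2 window at chr10:60106007-60106256 on the plus strand.
Sparc: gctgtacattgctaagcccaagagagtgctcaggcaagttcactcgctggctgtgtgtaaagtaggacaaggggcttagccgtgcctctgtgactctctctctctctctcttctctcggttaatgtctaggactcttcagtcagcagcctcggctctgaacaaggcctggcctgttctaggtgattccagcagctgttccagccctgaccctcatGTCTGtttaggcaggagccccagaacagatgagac
Spock2: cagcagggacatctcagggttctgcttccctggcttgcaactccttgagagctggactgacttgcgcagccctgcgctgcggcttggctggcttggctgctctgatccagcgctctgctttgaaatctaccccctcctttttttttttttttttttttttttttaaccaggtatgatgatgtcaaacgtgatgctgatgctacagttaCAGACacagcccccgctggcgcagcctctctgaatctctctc
These starts are those of RefSeq. They lie inside the GENCODE gene spans given with each gene, 3103 bases past the GENCODE start for Sparc and 38 bases past it for Spock2. Each window held 1 match, which began 35 bases before the start in Sparc and 42 bases before it in Spock2. Of the other windows, those of Thbs2 and Thbs4, which passed by neither label, held 2 matches each. Those of Spock1 and Thbs3 held 0. CAGAC or GTCTG occurred in 42.2% of 32851 mouse promoter windows of this length, so a match is common. The palindrome GTCTAGAC, present in 0.167% of windows, was found in none of the 6 promoters. GGCGCC, another SMAD-bound motif present in 9.59% of windows, was found in the Spock1 promoter alone. Both strands were searched, and no motif contains another. These letters describe the windows and were not tied to binding in these cells.

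Expression of the 10 genes spanned more than 3 orders of magnitude. Mean level over the 19 libraries was 482 scaled TPM for Sparcl1, 73.9 for Spock2, 67.5 for Sparc, 15.4 for Thbs4 and 12.4 for Thbs3. It was 6.10 for Smoc1, 3.53 for Spock1, 1.22 for Thbs1, 0.95 for Thbs2 and 0.27 for Smoc2. Sparcl1 was the 55th most abundant of all listed genes and exceeded Sparc and Spock2 in 19 of 19 libraries. The order of Sparc and Spock2 followed the Smad4 label. Sparc exceeded Spock2 in 0 of 4 WT and 0 of 5 Fmr1 KO libraries, but in 4 of 6 Smad4 cKO and 4 of 4 double mutant libraries. Of the other neighbours in this order, Sparc exceeded Thbs4 and Thbs2 exceeded Smoc2 in 19 of 19 libraries, and Thbs3 exceeded Smoc1 and Spock1 exceeded Thbs1 in 18 of 19. Thbs4 exceeded Thbs3, and Thbs1 exceeded Thbs2, in 11 of 19 libraries, so neither of these pairs was separated beyond its spread. Smoc1 exceeded Spock1 in 14 of 19 libraries, including all 6 Smad4 cKO and all 4 double mutant libraries.

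**Figure D1:**
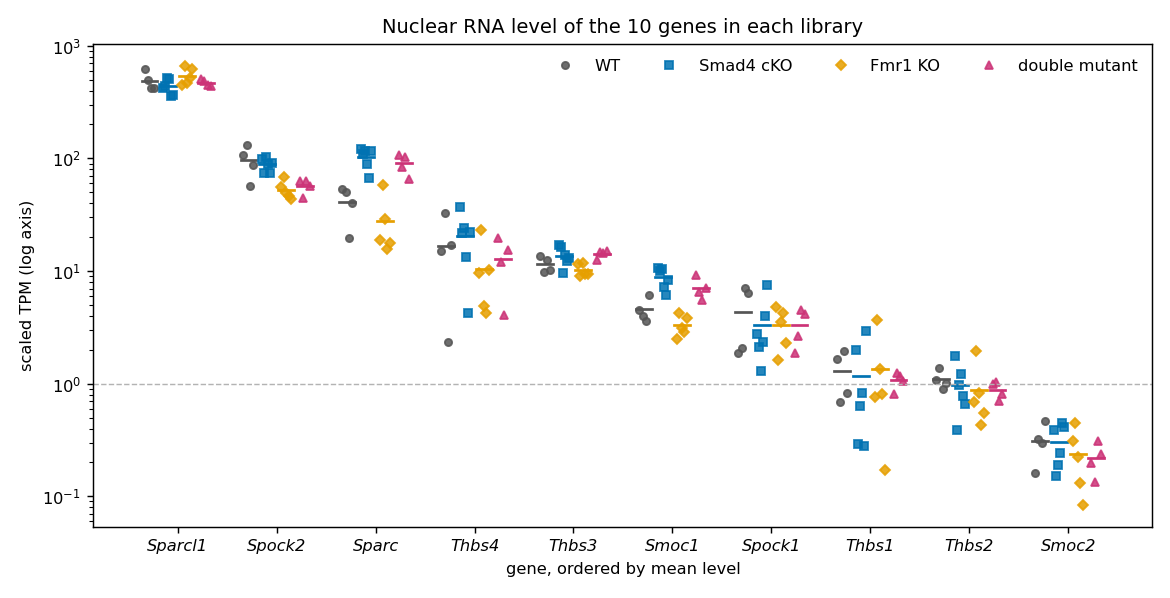
Scaled TPM (log axis) of each of the 10 genes in each of the 19 libraries, coloured by group, with a short line at each group mean and a dashed line at 1 scaled TPM. Sparcl1 lies highest at a mean of 482, and Thbs1, Thbs2 and Smoc2 lie around or below 1.

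Sparc (chromosome 11, 55394500 to 55423183, minus strand, GRCm38) encodes a collagen-binding matricellular protein made in the adult cortex by glia and by blood vessels. Its level was 53.3, 50.1, 19.7 and 40.3 scaled TPM in the 4 WT libraries. The 6 Smad4 cKO libraries had a lowest value of 66.9, a median of 113 and a highest of 121 scaled TPM. The 9 Cre-negative libraries, with a range of 15.6 to 58.4, did not overlap the 10 Cre-positive ones, with a range of 65.7 to 121. A full separation in this direction was seen in 0.272% of the genes tested. The Fmr1 KO libraries held 18.7, 58.4, 28.7, 15.6 and 17.8 scaled TPM, so 4 of them were below 3 of the 4 WT libraries and 1 was above all WT libraries. The double mutant libraries held 108, 84.7, 103 and 65.7 scaled TPM.

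The average Smad4-label difference for Sparc was 1.60 ± 0.23 (SE) on the log2 scale, with a 95% interval of 1.10 to 2.09 and an adjusted p of 0.000768 in limma. It passed in all 28 alternative analyses, in which it lay between 1.44 and 1.75. Within postnatal day 26, Cre-positive libraries exceeded Cre-negative ones by 1.24 (5 against 3 libraries), within day 27 by 1.96 (4 against 5) and on day 28 by 0.82 (1 against 1). On days 26 and 27 these values pooled both Fmr1 labels without weighting them equally, unlike the average. The interaction, which asks whether the difference depends on the Fmr1 label, was 0.44 ± 0.47 with an interval of -0.55 to 1.43 and an adjusted p of 0.9998, so a sizeable dependence in either direction was not resolved. The separate comparison within libraries labelled Fmr1 intact missed the threshold at an adjusted p of 0.0613, but passed in 5 of 29 alternatives. These were TPM as deposited (adjusted p = 0.0467), postnatal day as a factor (0.0372), an endothelial covariate (0.0117), and leaving out Smad4 cKO replicate 5 (0.0477) or Fmr1 KO replicate 2 (0.0118). The comparison within libraries labelled Fmr1 KO passed at 0.0255. Without Fmr1 KO replicate 1, 4 or 5 or double mutant replicate 1, 2 or 3, its adjusted p lay between 0.0673 and 0.103, and with these 2 groups alone it was 0.145.

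Endothelial cells are a further source of Sparc RNA in cortex, so their markers are given beside it. Summed endothelial markers had a lowest, median and highest value of 206, 510 and 831 scaled TPM in WT and of 299, 433 and 590 in Smad4 cKO. They were 140, 188 and 348 in Fmr1 KO and 167, 223 and 296 in double mutant libraries. By the Smad4 label, 0 of 15 endothelial markers passed in limma, 0 had an unadjusted p under 0.05, and their median difference was 0.08. Of 11 mural markers tested, Notch3 was higher (0.55, adjusted p = 3.58e-05), and the median of the list was 0.07. Summed mural markers had medians of 210, 246, 157 and 191 scaled TPM in WT, Smad4 cKO, Fmr1 KO and double mutant libraries. Oligodendrocyte markers were above 0 in 12 of 12 with a median of 0.50, and 0 passed or had an unadjusted p under 0.05. Microglial markers were above 0 in 12 of 14 with a median of 0.15, and 0 passed but 1 had an unadjusted p under 0.05. Astrocyte markers were above 0 in 8 of 12 with a median of 0.06. Of these, 1 passed as higher and 3 had an unadjusted p under 0.05, beside 1.04% and 11% of all genes. Neuronal markers were above 0 in 1 of 14 with a median of -0.20, and 0 passed or had an unadjusted p under 0.05. The part of astrocyte, neuronal, mural, oligodendrocyte and microglial RNA in the Sparc and Smoc1 results was not tested. With the endothelial score as a covariate, the average Sparc difference by the Smad4 label was 1.55 and its adjusted p 0.000145. Without the library of highest endothelial sum in each group it was 1.75, with an adjusted p of 0.00113. Both alternatives were chosen after the data had been seen, and the cell source of the Sparc difference was not tested. By the Fmr1 label, Sparc differed by -0.40 on average, with an interval of -0.90 to 0.09 and an adjusted p of 0.503, and this changed sign in 1 of 28 alternatives, to 0.33.

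Sparcl1 (chromosome 5, 104079111 to 104113733, minus strand), which encodes hevin, did not move beyond its spread. Its level was 618, 496, 422 and 420 scaled TPM in WT libraries, and 355 to 520 around a median of 434 in Smad4 cKO. Fmr1 KO libraries held 448, 662, 470, 517 and 619, and double mutant libraries 505, 484, 445 and 443. The groups overlapped throughout. Its average Smad4-label difference was -0.18, with an interval of -0.40 to 0.04 and an adjusted p of 0.613, which leaves room for a small decrease. The Fmr1-label difference was 0.14, with an interval of -0.08 to 0.35 and an adjusted p of 0.634. Across all 19 libraries Sparcl1 varied by 1.87-fold, the smallest range of the 10 genes. An antisense gene, Gm26703, overlaps Sparcl1, and no source used here says whether reads were assigned by strand.

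The balance of the 2 transcripts therefore followed Sparc. The ratio of Sparcl1 to Sparc TPM had a median of 11 in WT (range 9.89 to 21.4) and 23.9 in Fmr1 KO (11.3 to 34.8). It was 4.26 in Smad4 cKO (3.13 to 5.72) and 5.20 in double mutant libraries (4.31 to 6.74). The Cre-positive and Cre-negative libraries did not overlap in this ratio, which is a description of the values above and was not tested on its own.

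**Figure D2:**
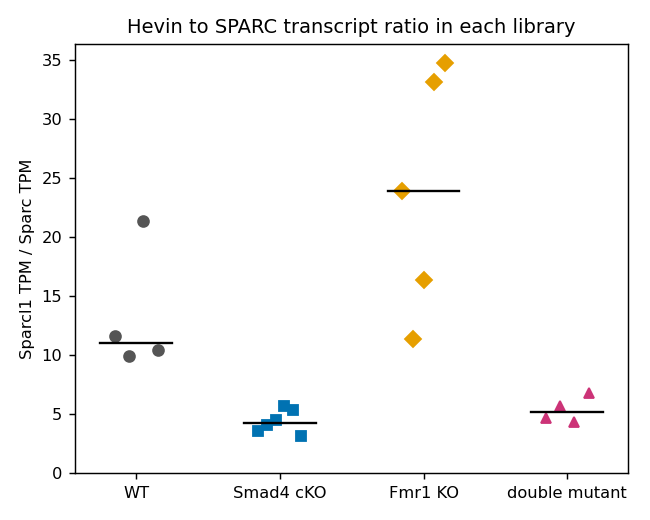
Ratio of Sparcl1 to Sparc TPM in each library (points), by group, with a line at each group median. Smad4 cKO and double mutant libraries lie between 3.13 and 6.74, below all WT and Fmr1 KO libraries.

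Smoc1 (chromosome 12, 81026808 to 81186414, plus strand) encodes a secreted SPARC-related calcium-binding protein whose Xenopus orthologue inhibits BMP signalling. Its level was 4.49, 3.96, 3.63 and 6.15 scaled TPM in WT libraries. In Smad4 cKO it had a lowest value of 6.18, a median of 9.19 and a highest of 10.6. Smad4 cKO lay entirely above WT, narrowly at the edge, a separation that 1.38% of the genes tested showed in the same direction. Fmr1 KO libraries held 2.49, 4.20, 3.15, 2.85 and 3.80 scaled TPM, and double mutant libraries 9.27, 6.49, 5.49 and 7.06. The double mutant lay entirely above Fmr1 KO, as 1.3% of genes did, while WT replicate 4 at 6.15 exceeded double mutant replicate 3 at 5.49.

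Smoc1 was the member with a call in each Smad4 comparison. The average difference was 0.86 ± 0.12 (SE) on the log2 scale, with an interval of 0.60 to 1.12 and an adjusted p of 0.000585, and it passed in all 28 alternatives at values from 0.79 to 1.01. Within days 26, 27 and 28 the difference was 1.06, 0.73 and 0.73, with Fmr1 labels pooled as for Sparc. The comparison within libraries labelled Fmr1 intact gave 0.82 ± 0.17 (adjusted p = 0.0282) and that within libraries labelled Fmr1 KO gave 0.90 ± 0.18 (adjusted p = 0.0307). These separate calls were less stable. The first lost its call in 9 of 29 alternatives, including when any of WT replicates 1 to 3 or Smad4 cKO replicates 1 to 3 was left out (adjusted p between 0.0651 and 0.132). The second lost it in 12 of 29, including without Fmr1 KO replicate 1, 3, 4 or 5 or double mutant replicate 1, 2 or 4 (adjusted p between 0.0617 and 0.138). The interaction was 0.09 ± 0.25. The Fmr1-label average was -0.32 ± 0.12, with an adjusted p of 0.245.

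Smoc2 (chromosome 17, 14279506 to 14404790, plus strand), the paralogue of Smoc1, was the least abundant member, at group means of 0.31, 0.31, 0.24 and 0.22 scaled TPM in WT, Smad4 cKO, Fmr1 KO and double mutant libraries. It was above 0 in every library but lay below the filter, with single libraries between 0.08 and 0.47. In a fit without the filter (21020 genes) its average Smad4-label difference was -0.01 and its Fmr1-label difference -0.09. Its antisense neighbour 4930474M22Rik overlaps it.

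**Figure D3:**
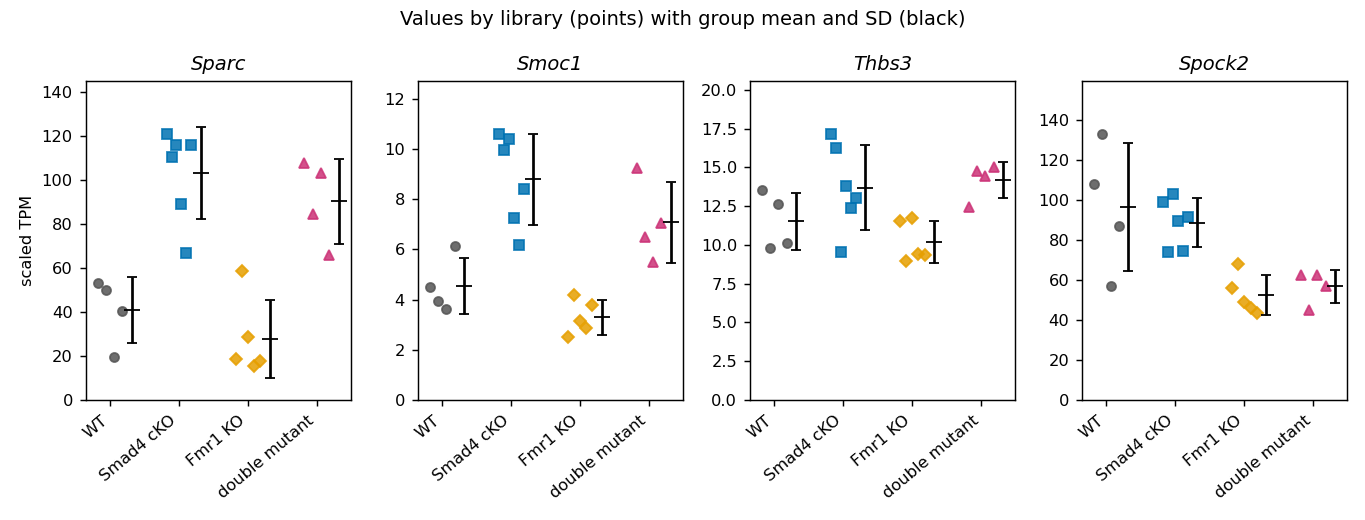
Scaled TPM of Sparc, Smoc1, Thbs3 and Spock2 in each library (points) by group, with the group mean and SD in black beside them. Sparc separates the Cre-positive from the Cre-negative groups at 58.4 and 65.7 scaled TPM, Smoc1 separates them within each Fmr1 label, and Spock2 is lower in the libraries labelled Fmr1 KO.

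Among all tested genes, the call rate gives the background for these counts. By the average Smad4 label, 2 of 8 members passed as higher and 0 as lower, beside 1.04% higher and 0.771% lower among the 15049 genes, or 1.81% in either direction. Within libraries labelled Fmr1 intact 1 of 8 was higher, against 0.525% of all genes higher and 0.784% called in all. Within libraries labelled Fmr1 KO 2 of 8 were higher, against 0.193% higher and 0.405% in all. The interaction called 0 of 8 members and 0 of all genes, or 0%, with 0 members and 1.66% of genes at an unadjusted p under 0.05. The median difference of the 8 members by the average label was 0.18, beside -0.00 over all genes. Because the members were chosen with earlier results of these data known, these counts are a description and no test of the families.

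Spock2 (chromosome 10, 60106219 to 60135198, plus strand) encodes testican-2, a secreted heparan sulphate proteoglycan with a SPARC-like calcium-binding domain. Its level was 108, 133, 57.1 and 87.0 scaled TPM in WT libraries. Smad4 cKO libraries ran from 73.6 through a median of 90.5 to 103. Fmr1 KO libraries held 55.9, 67.9, 49.0, 46.1 and 43.4 scaled TPM, and double mutant libraries 62.4, 44.9, 62.4 and 57.1. Double mutant libraries did not overlap Smad4 cKO, a separation that 1.42% of genes showed in the same direction. WT replicate 3 at 57.1 lay among the Fmr1 KO values, so the Cre-negative groups overlapped.

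The average Fmr1-label difference of Spock2 was -0.73 ± 0.13 (SE) on the log2 scale, with an interval of -1.01 to -0.44 and an adjusted p of 0.0179. Among all genes 1.23% passed as lower and 0.299% as higher in this comparison, 1.53% in all, and Spock2 was the 1 of 8 members that passed. On the values as deposited, the split over all genes turned from 45 higher and 185 lower to 420 higher and 187 lower. Within day 26 the Spock2 difference by label was -0.77 and within day 27 it was -0.53, with both Smad4 labels pooled and not weighted equally. The 2 separate comparisons gave -0.82 ± 0.19 (adjusted p = 0.154) and -0.63 ± 0.19 (adjusted p = 0.419), beside 0% and 0.0199% of all genes called in limma and 8.23% and 7.56% at an unadjusted p under 0.05. The first passed without WT replicate 3 (-1.04, adjusted p = 0.00949). The average call held in 24 of 28 alternatives. It was lost without double mutant replicate 2 (-0.67, adjusted p = 0.0501) and with postnatal day as a factor (-0.65, adjusted p = 0.0552). It was also lost with the replicate block and with the endothelial score as a covariate (-0.12, adjusted p = 0.693). The interaction was 0.18 ± 0.27 and the Smad4-label average 0.02, with an interval of -0.26 to 0.31.

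Endothelial marker RNA moved with Spock2. By the average Fmr1 label, 0 of 15 endothelial markers were above 0, 10 passed as lower and 15 had an unadjusted p under 0.05. Their median difference was -1.11. Those of smallest p were the vascular receptor gene Flt1 at -1.33 and the endothelial secreted factor gene Egfl7 at -1.38. The 3 genes whose levels were most like Spock2 over the 19 libraries were the vascular genes Podxl (Pearson r = 0.97), Ptprb (0.97) and Tie1 (0.96). Markers of other cell types also differed by this label. Of 11 mural markers tested, Abcc9 was lower (-0.69, adjusted p = 0.0348), 6 had an unadjusted p under 0.05 and the median was -0.51. Oligodendrocyte markers were above 0 in 12 of 12 (median 0.77) and precursor markers in 11 of 11 (median 0.40), with 0 passing in either list and 3 in each at an unadjusted p under 0.05. Microglial markers had a median of -0.36, with 1 of 14 above 0, 0 passing and 0 at an unadjusted p under 0.05. The part of these cell types in the Spock2 result was not tested. With the endothelial score as a covariate, the Spock2 difference was -0.12 with an adjusted p of 0.693, and no gene passed. All 15 markers in that score were themselves lower by this label, so this fit cannot separate the label from the score. Without the library of highest endothelial sum in each group it was -0.69 with an adjusted p of 0.0432. The share of listed TPM on the ribosomal RNA gene Rn45s was also lower in the libraries labelled Fmr1 KO, at 29.2% ± 6.36 in WT, 26.1% ± 5.06 in Smad4 cKO, 19.7% ± 2.57 in Fmr1 KO and 18.6% ± 3.59 in double mutant libraries (SD). The part of the ribosomal RNA share in the result was not tested.

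**Figure D4:**
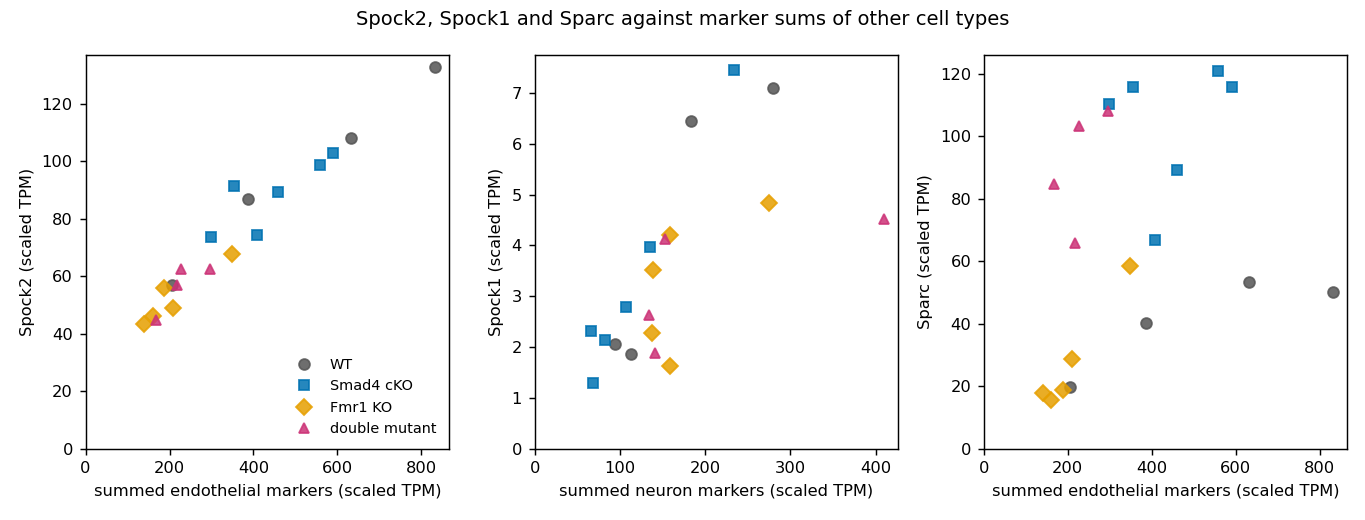
Scaled TPM of Spock2 against summed endothelial markers (left), Spock1 against summed neuronal markers (middle) and Sparc against summed endothelial markers (right), 1 point per library, coloured by group. Spock2 rises with the endothelial sum across all groups. Sparc is 65.7 to 121 in Cre-positive and 15.6 to 58.4 in Cre-negative libraries. The cell sources were not tested.

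Spock1 (chromosome 13, 57421195 to 57908332, minus strand) encodes testican-1, the neuron-enriched relative of testican-2. Its group means were 4.36 ± 2.79, 3.33 ± 2.2, 3.30 ± 1.33 and 3.29 ± 1.24 scaled TPM (SD) in WT, Smad4 cKO, Fmr1 KO and double mutant libraries, with large overlap. Its Smad4-label average was -0.13, with an interval of -0.70 to 0.44, and its Fmr1-label average was -0.07, with an interval of -0.64 to 0.50. The spread lay within groups. WT libraries held 1.85, 2.06, 7.09 and 6.45, and the Smad4 cKO range was 1.29 to 7.45. Its level was most like those of the neuronal genes Cabp1 (r = 0.96), Dlg2 and Xkr4 over the 19 libraries, also within groups (r = 0.97 for Cabp1). Neuronal marker sums had medians of 148, 95.1, 159 and 147 scaled TPM in the 4 groups in the same order, and 0 of 14 neuronal markers tested passed by either average label in limma, with 0 and 2 at an unadjusted p under 0.05 by the Smad4 and Fmr1 labels. By the average Smad4 label 1 of 14 neuronal markers was above 0, with a median of -0.20. By the average Fmr1 label 12 of 14 were above 0, with a median of 0.28. The part of neuronal RNA in the Spock1 values was not tested.

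Thbs3 (chromosome 3, 89215180 to 89226837, plus strand) encodes a pentameric thrombospondin. Its level was 13.5, 9.77, 12.6 and 10.1 scaled TPM in WT, and 9.54 to 17.1 around a median of 13.4 in Smad4 cKO. Fmr1 KO libraries held 11.5, 8.95, 11.7, 9.39 and 9.34, and double mutant libraries 12.5, 14.8, 14.5 and 15. The double mutant lay entirely above Fmr1 KO, as 1.3% of genes did, but that difference of 0.44 ± 0.14 had an adjusted p of 0.393. WT and Smad4 cKO overlapped. Its average Smad4-label difference was 0.33 ± 0.10, with an interval of 0.13 to 0.54 and an adjusted p of 0.108, and it passed only without Smad4 cKO replicate 3 (0.38, adjusted p = 0.0262). The span of Thbs3 lies wholly within that of Mtx1 on the opposite strand. Counting over exons or gene bodies, and the use of strand, are not given. Reads of Mtx1 may therefore enter the Thbs3 value, which is uncertain.

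Thbs4 (chromosome 13, 92751590 to 92794818, minus strand) encodes another pentameric thrombospondin, and varied most among the members above 5 scaled TPM. Its level was 15.2, 33.0, 2.35 and 16.9 scaled TPM in WT, and 4.27 to 36.9 around a median of 22.1 in Smad4 cKO. Fmr1 KO libraries held 9.65, 23.1, 4.86, 4.24 and 10.2, and double mutant libraries 19.7, 11.9, 4.04 and 15.3. The highest library was 15.7-fold above the lowest, and each group spanned at least 4.88-fold. The Smad4-label average was 0.38, with an interval of -0.58 to 1.35, and the Fmr1-label average -0.53, with an interval of -1.49 to 0.44. The first interval includes a 2-fold increase and the second a 2-fold decrease.

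Thbs1 and Thbs2 encode the trimeric thrombospondins, which astrocytes secrete to promote synapse formation in development. Thbs1 (chromosome 2, 118111876 to 118127133, plus strand) averaged 1.28, 1.16, 1.34 and 1.07 scaled TPM in WT, Smad4 cKO, Fmr1 KO and double mutant libraries, over a 21.1-fold range from 0.17 to 3.65. Its Smad4-label average was -0.10, with an interval of -0.65 to 0.45, and its Fmr1-label average -0.01, with an interval of -0.56 to 0.54. Thbs2 (chromosome 17, 14665500 to 14694235, minus strand) averaged 1.09, 0.97, 0.89 and 0.88 scaled TPM, and fell below the filter. Without the filter its Smad4-label difference was -0.04 and its Fmr1-label difference -0.12. Gm29233 overlaps Thbs1 on the opposite strand.

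**Figure D5:**
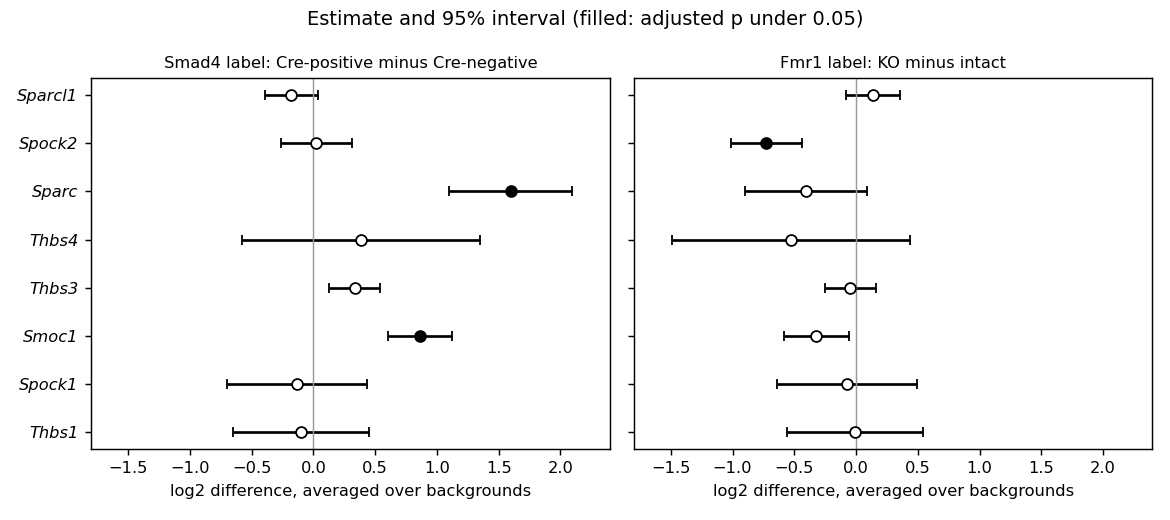
Average log2 difference by the Smad4 label (left) and the Fmr1 label (right) for the 8 tested members, with 95% intervals and filled symbols where the adjusted p was under 0.05. Sparc at 1.60 and Smoc1 at 0.86 pass on the left, and Spock2 at -0.73 passes on the right.

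Genes most like some other members in level over the 19 libraries are given as description, since these correlations share libraries and group differences. Sparc was most like Cd38 (r = 0.92, or 0.66 within groups), Cd81 (0.91) and Ldlrad4 (0.91). Smoc1 was also most like Cd38 (0.94, or 0.77 within groups), followed by Vstm4 (0.93) and Ltbp3 (0.92). Sparcl1 was most like the astrocyte adhesion gene Hepacam (0.92, or 0.89 within groups). Sparc and Smoc1 had an r of 0.89 with each other, which was 0.52 within groups. Sparcl1 and Spock1 had an r of -0.70, which was -0.87 within groups.

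Receptors and partners of these proteins were followed as lists. Of 13 thrombospondin receptors and partners, 11 were tested and 0 passed in any of 7 comparisons in limma, with 1 at an unadjusted p under 0.05 by the average Smad4 label and 4 by the average Fmr1 label. Among all genes these shares were 11% and 13.2%. Cacna2d1, the thrombospondin receptor gene, averaged 4.86, 4.49, 4.63 and 4.96 scaled TPM in WT, Smad4 cKO, Fmr1 KO and double mutant libraries. Lrp1, which encodes an endocytic receptor for thrombospondin, differed by 0.27 ± 0.07 by the average Smad4 label, with an adjusted p of 0.0547. Of 14 SPARC and hevin partners, 12 were tested and 0 passed in any comparison, with 2 at an unadjusted p under 0.05 by the average Smad4 label and 3 by the average Fmr1 label. Among them, Tgm2, a transglutaminase gene, differed by -0.46 ± 0.13 by the average Fmr1 label with an adjusted p of 0.0851. Stab1, a scavenger receptor gene, differed by -0.87 ± 0.35 with an adjusted p of 0.267. By the same label, 7 of the 12 tested partners had a difference above 0. Among further relatives of the 10 genes, Fstl1 differed by 0.49 ± 0.14 by the average Smad4 label (adjusted p = 0.0916), 0 of 2 tested passed, and 1 had an unadjusted p under 0.05.

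Among 12 other matricellular genes, 7 were tested and 1 passed as lower by the average Smad4 label. This was Tnc, the gene of tenascin-C, which fell by 1.79 on the log2 scale, opposite to Sparc and Smoc1. Igfbp7, an insulin-like growth factor binding protein gene, was the 1 of 7 that passed as lower by the average Fmr1 label, by 0.92 ± 0.22 with an adjusted p of 0.0437. Its call held in 6 of 27 alternatives. Of the 19 libraries, only WT replicate 3, Smad4 cKO replicate 2, Fmr1 KO replicate 2 and double mutant replicate 1 could be left out without losing it, and the adjusted p was otherwise 0.0590 to 0.107. With the endothelial covariate the Igfbp7 difference was -0.01, in a fit that cannot separate the Fmr1 label from the endothelial score. All 16 other astrocyte synapse regulators were tested. Tgfb2, a TGF-beta ligand gene, was the 1 that passed by the average Smad4 label, lower at -0.39 ± 0.07 with an adjusted p of 0.00745. Chrdl1, whose protein promotes maturation of glutamate receptors at synapses, was the 1 that passed by the average Fmr1 label, higher at 0.60 ± 0.13 with an adjusted p of 0.0289. The Chrdl1 call held in 15 of 28 alternatives, and was lost without WT replicate 2 or 4, Smad4 cKO replicate 3, Fmr1 KO replicate 3 or 4, or double mutant replicate 2, 3 or 4 (adjusted p between 0.0504 and 0.0771). Of the 9 alternatives that did not leave out a single library, Chrdl1 passed in 4, and its adjusted p reached 0.536. The same background rates, 1.81% by the average Smad4 label and 1.53% by the average Fmr1 label, are given beside each list's count as a description.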

How the data were processed

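One table was analysed, in which the authors deposited TPM for 24537 genes in 19 libraries, named as TPM per the file headers. Per the submitters' processing notes, bcl2fastq 2.20, MultiQC 1.0, STAR 2.5.3a and HOMER 4.10.4 were used with mm10. Counting over exons or gene bodies, and the use of strand, are not given in the sources used here. Read depth is unknown.

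TPM were divided by median-of-ratios library factors, and log2(scaled TPM + 1) was fitted with limma-trend (limma 3.58.1, R 4.3.3) over all 4 groups, with group as the only term, for the 15049 genes whose mean TPM reached 1. Benjamini-Hochberg adjustment was made within each of 7 comparisons over all tested genes, at 0.05. The steps were tested on simulated data. All members were named, and of each gene list the members that passed, up to 4 by smallest p. Cacna2d1, Lrp1, Tgm2, Stab1 and Fstl1 did not pass and were named after their values were seen. The members and lists were chosen with earlier results of these data known. Likeness was Pearson's r among genes with a mean of at least 5 scaled TPM. Positions came from GENCODE vM21 on GRCm38. Alternatives changed the scaling, pseudocount, filter, block, day term and libraries used. Those with endothelial values were added after seeing the data. Figures were drawn with matplotlib 3.10.9 in Python 3.11.15. Some items are not reported here by name and stay in all counts.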

Additional observations from a re-analysis of the deposited data

Results flagged for a closer look

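Thbs2 stood apart in Fmr1 KO replicate 2, at 1.93 scaled TPM, where the next highest of the 5 Fmr1 KO libraries held 0.82. The gap was 0.739 of the range of the group. It was the only such value among 40 combinations of gene and group, and chance alone marks about 1 in 20 groups. The same library held the highest value of its group for 8 of the 10 genes, among them Sparc (58.4), Sparcl1 (662), Smoc1 (4.20), Smoc2 (0.44), Spock2 (67.9), Thbs1 (3.65) and Thbs4 (23.1), and the lowest for Spock1 (1.63) and Thbs3 (8.95). It also held the highest summed astrocyte (11207), microglial (560), endothelial (348) and mural (209) markers of its group.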

How the results depend on the processing

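No member that passed changed its direction under any alternative. With the replicate block, 63, 21, 0 and 2 genes were called in Smad4 cKO against WT, double mutant against Fmr1 KO, double mutant against Smad4 cKO and the Fmr1 average, and 0 members in each, against 118, 61, 3 and 230 genes. Deviations from group means correlated between same-numbered libraries at means from -0.06 to 0.03, with single pairs from -0.27 to 0.20. Whether same-numbered libraries shared a litter or batch was not tested, and the labels give only the number. The block gave Sparc an adjusted p of 0.0814 in double mutant against Fmr1 KO, and Spock2 one of 0.0853 by the Fmr1 average. With the compared groups alone, the first 3 of these comparisons called 62, 20 and 0 genes, and 0 members. Without the 4 libraries of highest endothelial sum the counts were 50, 19, 161 (Smad4 average), 65 (Fmr1 average) and 1 (interaction) genes, with 0 members in Smad4 cKO against WT and 1 in double mutant against Fmr1 KO. Members called in Smad4 cKO against WT numbered 2 on TPM as deposited, with day as a factor and with the endothelial covariate, and members in double mutant against Fmr1 KO numbered 1 with quantile normalization and with no filter. The endothelial covariate left 0 genes in double mutant against Smad4 cKO. The Fmr1 average called 607 genes as deposited, 70 with quantile normalization, 110 at a mean TPM of at least 5, 21 with day as a factor and 0 with the endothelial covariate, and 0 members in the last pair.

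Leaving out each library gave 80 to 131 genes and 0 to 2 members in Smad4 cKO against WT, 27 to 62 and 0 to 2 in double mutant against Fmr1 KO, and 209 to 298 and 2 to 3 by the Smad4 average. It gave 0 to 164 and 0 to 1 in Fmr1 KO against WT, 0 to 4 and 0 to 0 in double mutant against Smad4 cKO, 44 to 393 and 0 to 1 by the Fmr1 average, and 0 to 0 for both in the interaction. The counts of 164 and 393 came without WT replicate 3, and 44 without double mutant replicate 2. By the Fmr1 average, values of Thbs1 and Spock1, which did not pass, changed sign in 12 and 6 of 27 alternatives. The cause was not tested. Groups of 4 to 6 libraries and unknown depth limit what could be seen in Thbs1, Thbs2 and Smoc2.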
